A study of Mus musculus with 8 samples.

Results

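Fetal liver erythroid progenitors that carried the second of 2 short hairpin RNAs were compared with cells that carried a control virus, both cultured with dexamethasone (DEX). The comparison takes the arrays titled shRNA2 with DEX and control with DEX, 2 arrays each, which are 4 of the 8 arrays of the series. All cells came from fetal liver of C57BL/6 embryos at E14.5 (midgestation) and were sorted as c-kit positive cells in the lowest 10% for CD71, after magnetic removal of mature and multipotent blood cells and of granulocyte, macrophage and megakaryocyte progenitors. They were infected with control virus or with virus encoding a hairpin (shRNA1 or shRNA2) against an RNA-binding protein and cultured for 3 days. The other groups, 2 arrays each, were control virus without DEX and shRNA1 with DEX. The labels do not name that protein; its identity, Zfp36l2, is taken from the published study of this design. Whether replicates were separate cultures or embryos is not stated, so the p-values reflect how far these arrays differed from each other, possibly for technical reasons only.

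ZFP36L2 belongs to a small family of zinc finger proteins that bind AU-rich elements in the 3′ ends of mRNAs and recruit the deadenylation machinery, so that the bound mRNA is degraded. Glucocorticoids act through a nuclear receptor and, in stress erythropoiesis, keep early erythroid progenitors dividing before they mature into red cells. The question of this comparison is which mRNAs differ when a second, independent hairpin against the protein is used in the presence of the hormone.

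RNA was measured on Agilent arrays in a single colour (Cy3). A level is given here as the log2 of the processed signal divided by the 75th percentile of its array, and a difference as shRNA2 minus control. All arrays numbered replicate 1 were on 1 slide and all numbered 2 on another, so each slide gives a difference of its own. The 75th percentile of the signal was 476 to 1003 on slide 1 and 1439 to 2061 on slide 2. On slides 1 and 2 it was 966 and 2061 for control with DEX, and 522 and 1665 for shRNA2. An equal signal therefore gives a higher level with shRNA2, and how far this moved dim probes was not tested. On the arrays 59.5% to 62.9% of spots were well above background, and 0 spots were saturated. Over 19130 genes, both hairpin arrays of slide 1 stood apart. The shRNA2 array of slide 1 correlated with the others at 0.931 to 0.978, highest with the shRNA1 array of slide 1, whereas the shRNA2 and control arrays of slide 2 correlated at 0.993. The value on slide 2 therefore gives each result below without that array. Of the erythroid defining markers 9 of 10 were measured, all well above background on all 4 arrays, among them Gata1, Klf1 and Epor. Their median difference was -0.03 from that of all genes. In bulk RNA, fewer cells of a type and less RNA per cell cannot be told apart.

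Zfp36l2 itself, the hairpins' target, was lower with shRNA2 on both slides. Its probe lies on chromosome 17, positions 84583415 to 84583474 of build mm9. With control virus and DEX its level was 5.70 on slide 1 and 5.57 on slide 2, and with shRNA2 it was 4.25 and 3.86. Both shRNA2 arrays lay below both control arrays. The difference was -1.58 (SE 0.31), or 0.335 of the control level, and it was -1.45 on slide 1 and -1.70 on slide 2. It did not pass over all genes in limma with Benjamini-Hochberg adjustment (adjusted p = 1.0, unadjusted p = 0.00195), nor with the slide as a block (adjusted p = 0.761, unadjusted p = 0.000834). Its level with shRNA1 was 4.18 and 4.05, a difference of -1.52 from the control on each slide, and its level in control cells without DEX was 3.61 and 3.98. The paralog Zfp36l1 differed by 0.13 (SE 0.30), -0.13 on slide 1 and 0.39 on slide 2, and with the array median as the scale by -0.12. Zfp36, the founding member, was well above background on 1 control and 1 shRNA2 array and differed by 0.31 (SE 1.32).

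Across all 19130 genes, limma without a block called 0 genes at an adjusted p below 0.05 (0.0% of those tested). The smallest adjusted p was 0.0714, and 243 genes had an unadjusted p under 0.05, where 5% of the genes tested would be 956. With the slide as a block, limma called 1 gene (0.00523%), and 1098 had an unadjusted p under 0.05. The gene called with the block is named here after its values were seen. The file names it ENSMUST00000055343, a RIKEN cDNA, with a probe that the file places in part on chromosome 13, positions 59842204 to 59842219 of mm9. The 60-base probe is printed because it alone identifies this transcript.
ENSMUST00000055343 probe: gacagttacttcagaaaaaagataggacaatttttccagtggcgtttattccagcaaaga
Its level was -8.30 and -8.55 in control cells with DEX, where it was not well above background, and -3.81 and -3.61 with shRNA2. By the measured signals the difference was 4.48 on slide 1 and 4.94 on slide 2. Set against the lowest signals well above background it was at least 5.62-fold higher with shRNA2. The blocked limma adjusted p was 0.0309, against 0.0714 without the block. The transcript passed the filter on dim probes with shRNA2, a group where it was high, and its control values lie at background. These p-values therefore describe it and are not support for a difference. The blocked call ended without any single array other than shRNA2 replicate 2 (adjusted p from 0.0805 to 0.862; 0.0339 without shRNA2 replicate 2). Its level with shRNA1 was -5.92 and -6.16, between those of the control and shRNA2, and in control cells without DEX it was -8.16 and -8.57, not well above background.

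Since so few genes passed a test, the genes that differed at least 2-fold the same way on both slides are described below by their values. They were 151 higher (0.789% of genes tested) and 49 lower (0.256%), so 75.5% of these genes were higher. That share depends on the scaling: it was 56.2% (118 higher and 92 lower) with the array median as the scale, 61.9% (122 and 75) with quantile normalization, 64.3% (18 and 10) with normexp and 62.8% (27 and 16) in the authors' deposited table. The median difference of all genes was 0.02 here, -0.23 with the array median as the scale and -0.05 with quantile normalization. Without the filter on dim probes it was 0.14, with 0.36 on slide 1 and 0.01 on slide 2. The slides differed in how much they showed. Slide 1 held 3224 genes that were at least 2-fold different, 2388 of them higher, and slide 2 held 716, 284 higher and 432 lower. The standard deviation of the differences over genes was 0.866 on slide 1 and 0.452 on slide 2, and across genes, which are not independent replicates, the slides' differences had a Pearson correlation of 0.129. In opposite ways 104 genes were at least 2-fold higher on slide 1 and lower on slide 2, and 4 the reverse. Naming genes by the size of their differences favours groups that do not overlap. Where no overlap is stated below, it describes the values and is not a test.

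**Figure D1:**
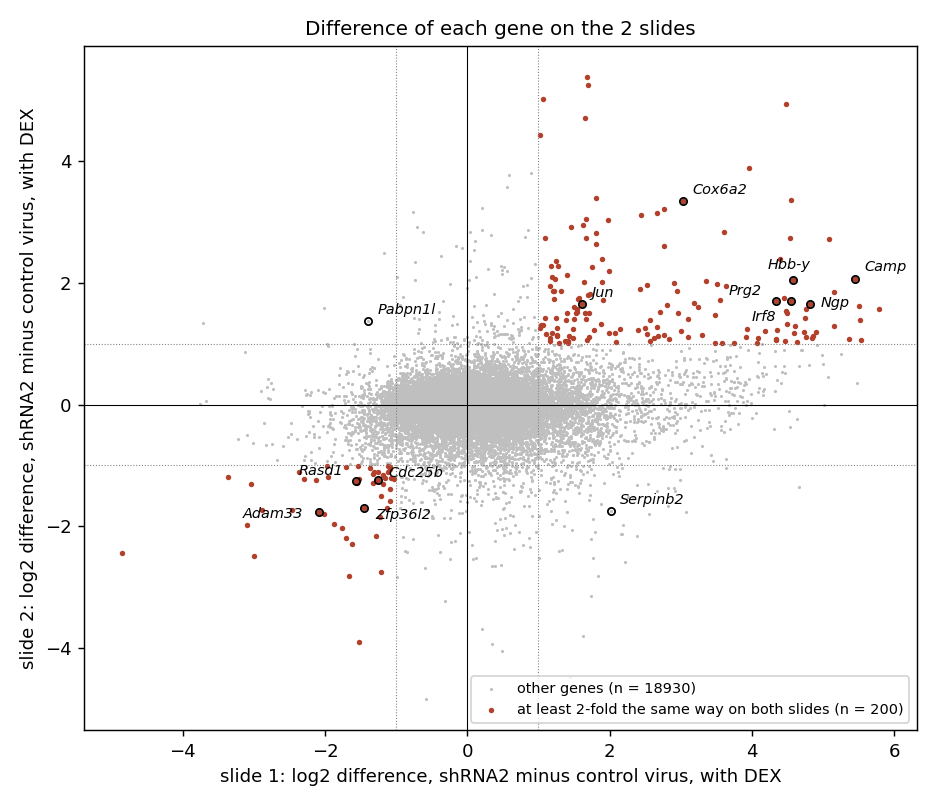
Log2 difference of each gene between shRNA2 and control virus, with DEX, on slide 1 (x axis) and slide 2 (y axis); red points are genes at least 2-fold different the same way on both slides and dotted lines mark 2-fold. The cloud is wider along slide 1 (SD 0.866) than along slide 2 (SD 0.452), and Camp, Ngp and Irf8 lie farther out on slide 1 than on slide 2.

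Among the gene lists examined, markers of granulocytes, white cells that store antimicrobial proteins in granules, held the most genes at least 2-fold higher on both slides. Of 26 neutrophil and granulocyte precursor markers 21 were measured and 7 were at least 2-fold higher on both slides, against 0.789% of all genes. The median difference of the list stood 2.30 above that of all genes, 4.06 on slide 1 and 0.52 on slide 2. On both slides 19 of the 21 were higher, against 27.8% of all genes, and 0 were lower on both. On slide 1 alone 20 were at least 2-fold higher, against 2388 of all 19130 genes.

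The upstream sequences of 3 of these genes, all on chromosome 9 and all at least 2-fold higher on both slides, are shown because granule genes are known to be controlled together by C/EBP transcription factors. The 150 bases before the annotated start are from RefSeq (GRCm38.p6), written 5′ to 3′ on the strand of the gene. Capitals mark matches to the C/EBP core TTGCNNAA, searched on both strands.
Camp, chr9:109849457-109849606, minus strand: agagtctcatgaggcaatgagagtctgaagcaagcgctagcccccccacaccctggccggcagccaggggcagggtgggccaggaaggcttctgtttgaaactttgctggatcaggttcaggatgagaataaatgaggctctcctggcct
Ngp, chr9:110419658-110419807, plus strand: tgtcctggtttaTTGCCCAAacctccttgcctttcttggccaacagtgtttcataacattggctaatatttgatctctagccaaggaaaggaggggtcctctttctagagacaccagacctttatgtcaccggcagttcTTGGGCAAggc
Ltf, chr9:111019142-111019291, plus strand: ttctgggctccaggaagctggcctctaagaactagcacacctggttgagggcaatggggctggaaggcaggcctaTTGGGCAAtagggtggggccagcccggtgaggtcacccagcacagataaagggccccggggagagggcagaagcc
Ngp holds 2 matches, Ltf 1 and Camp 0 in this window. Of the granulocyte markers measured, 19 have a promoter that was searched and 6 hold the core (31.6%). Of all 27025 genes with a promoter 1704 do (6.31%). In 2 other lists described below, the core is held by 1 of 5 eosinophil markers and 2 of 15 monocyte and macrophage markers with a promoter. Both of these shares are also above that of all genes, but they rest on 1 and 2 genes. Whether the core is particular to the granulocyte list was not tested. A match describes letters in this window and was not tested as a binding site.

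Camp encodes cathelicidin, an antimicrobial peptide of neutrophil granules. Its level was -1.0 and -0.95 in control cells with DEX, and 4.45 on slide 1 and 1.11 on slide 2 with shRNA2. Both shRNA2 arrays lay above both control arrays, and the array of slide 1 lay far above the one of slide 2. The difference was 3.76 (SE 1.1), 5.45 on slide 1 and 2.07 on slide 2, and a second probe gave 3.56. The limma adjusted p was 1.0 (unadjusted p = 0.0137). Blocking by slide gave an adjusted limma p of 0.776. With shRNA1 the differences from the same controls were 2.81 and 2.74.

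Ngp, the neutrophilic granule protein, was at -2.37 and -2.62 in the controls and at 2.45 and -0.97 with shRNA2, again with no overlap. Its difference was 3.23 (SE 1.09), 4.82 on slide 1 and 1.65 on slide 2. Ltf, lactoferrin, an iron-binding granule protein, was at -2.94 and -2.72 in the controls and at 1.55 and -1.22 with shRNA2. Its difference was 2.99 (SE 1.07). Fcnb, the lectin ficolin B, was at -3.94 and -4.12 in the controls and at 0.66 and -2.95 with shRNA2. In these 3 genes, as in Camp, slide 1 showed the larger difference. Against the control arrays that these groups share, shRNA1 gave differences of 2.61 and 2.56 for Ngp, 1.94 and 2.53 for Ltf, and 2.09 and 1.85 for Fcnb.

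The signal of the granulocyte markers summed on the linear scale, in units of the array's 75th percentile, was 159 and 143 in control cells with DEX and 971 and 181 with shRNA2. It was 417 and 281 with shRNA1 and 153 and 303 in control cells without DEX. The list was therefore present in every group, and its sum on slide 2 was lower with shRNA2 than in control cells without DEX. Cd177, Ly6g, Mmp9, Olfm4 and Retnlg were not tested, since they did not pass the filter on dim probes in any group. Whether more cells of this type had a part in the differences was not tested. Without shRNA2 replicate 1 the median of the list was 1.13, without shRNA2 replicate 2 it was 3.54, and without control with DEX replicate 1 or 2 it was 1.76 or 2.83. Here and in the lists below, leaving out an array sets the remaining array of its group against arrays of both slides. Within slide 2 the granulocyte list stood at 0.52.

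Markers of monocytes and macrophages, the phagocytes of blood and tissue, were also higher as a list. Of 28 markers 18 were measured. At least 2-fold higher on both slides were 4, against 0.789% of all genes, and 14 were higher on both, against 27.8%. The median stood 1.94 above all genes, 3.44 on slide 1 and 0.35 on slide 2. Without shRNA2 replicate 1 it was 0.61 and without replicate 2 it was 3.21, and with normexp background correction it was 1.2. The summed signal was 5.58 and 4.67 in the controls, 44.1 and 6.19 with shRNA2, 14.8 and 8.74 with shRNA1, and 5.83 and 12.7 in control cells without DEX. The markers that did not pass the filter in any group included C1qa, C1qc, Cd163, Clec4f, Timd4 and Vcam1, which mark resident macrophages.

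Irf8, a transcription factor of monocyte and dendritic cell development, was at -3.44 and -2.87 in control cells with DEX and at 1.11 and -1.18 with shRNA2. The groups did not overlap. The difference was 3.12 (SE 0.93), 4.55 on slide 1 and 1.70 on slide 2 (limma adjusted p = 1.0; 0.776 when blocked by slide). Ly86, a partner of the receptor homologue RP105, differed by 2.48 (slides 3.48 and 1.48). Mpeg1, the pore-forming protein perforin-2 of macrophages, differed by 3.05 (4.91 and 1.19), and the lysozyme gene Lyz2 had 4.85 and 1.09. All 4 were higher on both slides, with the larger value on slide 1.

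Eosinophils, granulocytes that carry cytotoxic basic proteins, had 6 of 10 markers measured, with 3 at least 2-fold higher on both slides (0.789% of all genes). The median stood 1.98 above all genes, 3.05 on slide 1 and 1.13 on slide 2, and it was 0.99 without shRNA2 replicate 1 and 3.17 without replicate 2. With only genes above background on all 4 arrays it was 0.85, with normexp 1.15. Prg2, the major basic protein, was at -4.03 and -3.13 in the controls and 0.31 and -1.43 with shRNA2, so the groups did not overlap. It differed by 3.02 (SE 0.90), 4.33 and 1.70 on the slides, and shRNA1 gave differences of 2.36 and 1.98. Prg3, its homologue, was not well above background in control cells with DEX and was at least 8.48-fold higher with shRNA2. That bound takes the mean of the shRNA2 arrays, and by the measured signals the slide differences of Prg3 were 5.08 and 2.71. Ear2, an eosinophil-associated ribonuclease well above background on 1 of 2 control arrays, differed by 3.5 (5.15 and 1.84), and Ear6 by 0.77 (0.96 and 0.58). Prg2 in control cells without DEX was at -1.84 and 0.41, above both control arrays with DEX. The summed signal of the list was 1.26 and 0.537 in the controls, 4.39 and 0.851 with shRNA2, 1.47 and 0.975 with shRNA1, and 0.573 and 2.26 in control cells without DEX. Epx, the eosinophil peroxidase, did not pass the filter in any group, nor did Ccr3, Ear1 and Siglec5.

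Megakaryocyte and platelet markers differed between the slides. Of 22, 20 were measured, and the median stood 2.70 above all genes on slide 1 and at -0.37 on slide 2. At least 2-fold higher on slide 1 were 17, against 2388 of all 19130 genes, and on both slides 0, against 0.789%. The list's value was 1.11 over both slides, but -0.49 without shRNA2 replicate 1. Ppbp, a platelet chemokine, had the largest smaller difference, 3.62 on slide 1 and 0.63 on slide 2. Tubb1, the platelet tubulin, had 3.02 and 0.34, Gp1ba 1.23 and 0.20, and Gp6, the collagen receptor, 3.99 and 0.02. The summed signal of the list was 78.3 and 55.4 in the controls and 317 and 40.5 with shRNA2. Its result on slide 1 was therefore not shared by slide 2.

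**Figure D2:**
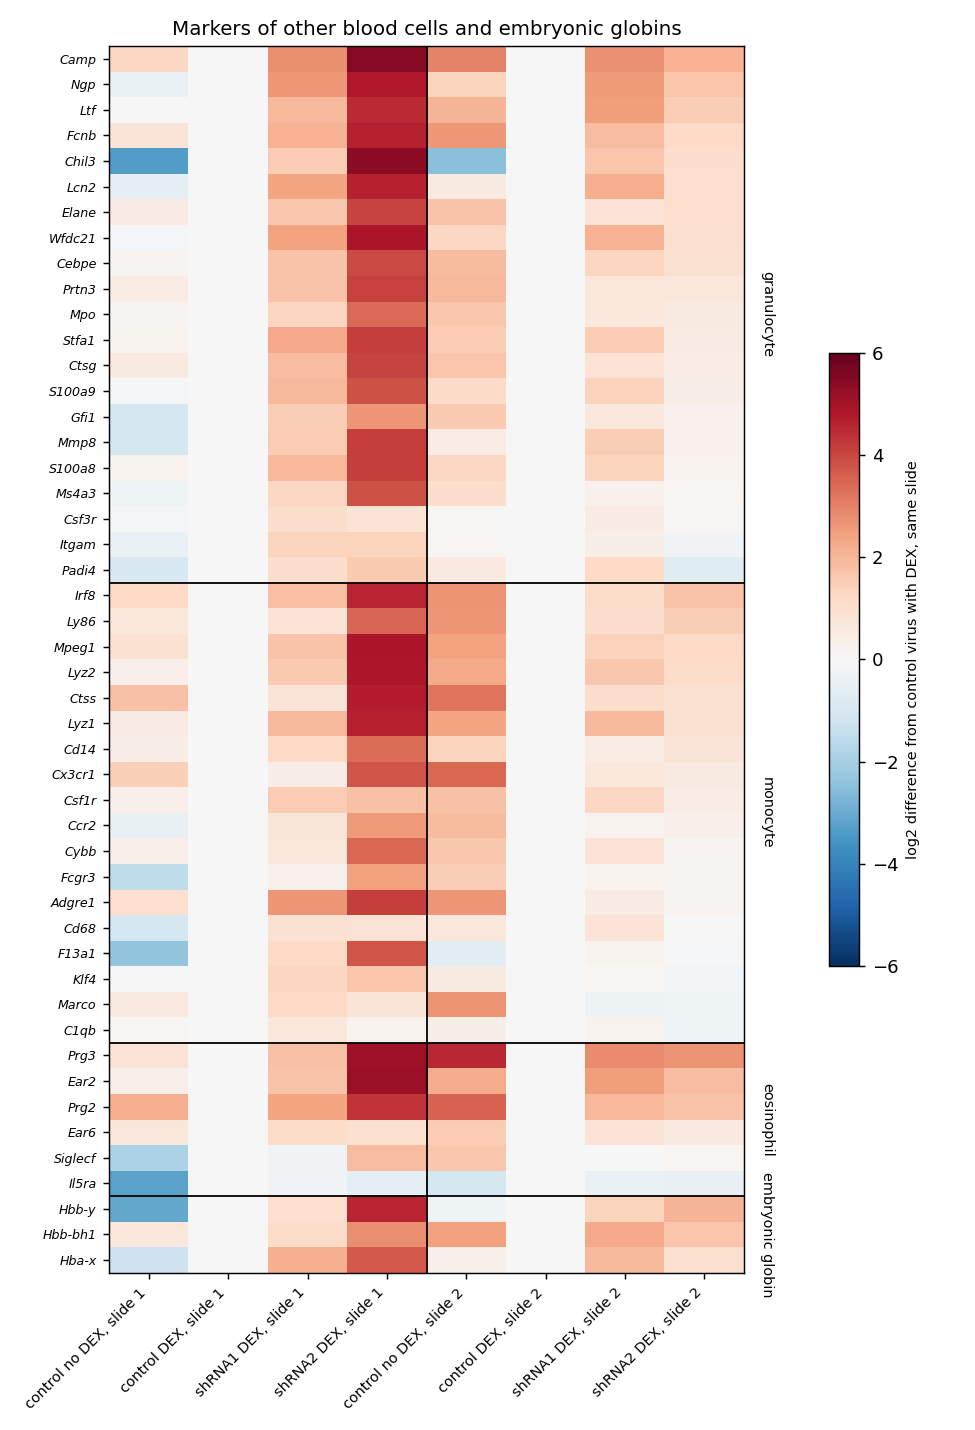
Log2 difference of granulocyte, monocyte and eosinophil markers and embryonic globins from the control virus array with DEX on the same slide, one row a gene, columns the 4 groups on slide 1 and then on slide 2; red is higher and blue lower. Camp reached 5.45 with shRNA2 on slide 1 and 2.07 on slide 2, and most rows are paler for shRNA2 on slide 2 than on slide 1.

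Embryonic globin genes encode haemoglobin chains of the first, yolk sac red cells. With shRNA2 all 3 were higher on both slides (27.8% of all genes), and 2 of them at least 2-fold (0.789%). The median stood 2.33 above all genes (3.67 and 1.63), with 0.58 without shRNA2 replicate 1, 4.30 without shRNA2 replicate 2, and 2.97 or 1.73 without control with DEX replicate 1 or 2. Hbb-y was at 1.22 and -1.83 in the controls and 5.80 and 0.22 with shRNA2. The arrays of the groups overlapped, because the slides differed as much as the groups, but within each slide shRNA2 was higher, by 4.58 and 2.05. The difference was 3.31 (SE 1.98, limma adjusted p = 1.0, unadjusted p = 0.143). Blocked by slide, limma gave an adjusted p of 0.776 (unadjusted p = 0.0306). A second probe gave 3.35. Hbb-bh1 was at -0.26 and -1.32 in the controls and 2.55 and 0.32 with shRNA2, with no overlap and slide differences of 2.81 and 1.64. Hba-x, the alpha-like member, was well above background on 1 of 2 control arrays, and its slides gave 3.70 and 0.98. With shRNA1 the differences were 1.01 and 1.35 for Hbb-y, 1.11 and 2.28 for Hbb-bh1, and 2.15 and 1.95 for Hba-x. The rise was therefore not particular to shRNA2. In control cells without DEX, Hbb-bh1 was at 0.38 and 1.13, above both controls with DEX. Hbb-y was at -1.86 and -2.08, below both, and Hba-x at -6.50 and -6.36. Near-identical globin genes can share signal, so the separate values are uncertain. The adult globins and their chaperone had a median 0.35 above all genes (0.62 and 0.07), with 5 of 7 measured and 0 at least 2-fold different on both slides. With normexp the median was -0.04 and in the authors' deposited table -0.05.

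Among the genes well above background on all 4 arrays, Cox6a2 had the largest smaller slide difference upward. It encodes the heart and muscle form of a cytochrome c oxidase subunit. Its level was -4.15 and -5.24 in control cells with DEX and -1.12 and -1.89 with shRNA2. The groups did not overlap, and both slides gave a difference of similar size, 3.04 and 3.34. The difference was 3.19 (SE 0.48), with a limma adjusted p of 1.0 (unadjusted p = 0.000512). Blocked by slide, limma gave an adjusted p of 0.284 (unadjusted p = 2.97e-05). Its level was -2.16 and -2.41 with shRNA1, and -1.89 and -2.35 in control cells without DEX.

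Jun, a subunit of the AP-1 transcription factor, was at 3.15 and 0.52 in the controls and 4.76 and 2.17 with shRNA2. The arrays overlapped across slides, and within the slides the differences were 1.61 and 1.65. H2ac6, a histone H2A gene, had slide differences of 1.67 and 3.04, and Sh2b2, an adaptor of receptor tyrosine kinases, 1.51 and 1.60. Sh2b2 was at -0.48 and -0.16 in the controls and 1.02 and 1.44 with shRNA2, with no overlap, and shRNA1 gave differences of 0.22 and -0.03. Ctsh, the lysosomal protease cathepsin H, had 3.25 and 1.60, and Pkdcc, a secreted protein kinase, 2.96 and 1.5.

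Some genes were well above background with shRNA2 and on neither control array with DEX. Ccl6, a chemokine of myeloid cells, was at least 7.72-fold higher, Lrrk2, a large protein kinase, at least 7.01-fold, Slc45a1, a sugar transporter, at least 5.44-fold, and Cd86, a costimulatory protein of antigen-presenting cells, at least 5.0-fold. These bounds set the mean with shRNA2 against the lowest signals well above background in the control arrays. By the measured signals the slide differences were 5.78 and 1.57 for Ccl6 and 4.60 and 1.29 for Lrrk2. They were 2.67 and 3.15 for Slc45a1 and 4.55 and 3.35 for Cd86. With shRNA2 Ccl6 was at -1.72 and -4.79 and Lrrk2 at -1.75 and -4.85, so their bounds rest mostly on slide 1.

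Kctd15, a BTB domain protein, had the smallest unadjusted p after the RIKEN transcript in limma without a block (adjusted p = 1.0). It was not well above background in control cells with DEX and was at least 4.22-fold higher. Tifab, a regulator of the adaptor TRAF6, was at least 2.17-fold higher, and Slc26a4, the anion exchanger pendrin, at least 2.21-fold. Kctd15, Tifab and Slc26a4 were well above background on both shRNA2 arrays and on neither control array with DEX. Their rank by p is therefore a description and not support. Slc51a, a subunit of a steroid transporter, was well above background on 1 of 2 control arrays and differed by 2.12 (SE 0.42), 2.71 on slide 1 and 1.52 on slide 2. Spink2, a serine protease inhibitor, was lower with shRNA2 by a difference of -3.65 (SE 0.70), -4.85 and -2.44 on the slides, and was well above background on 1 of 2 shRNA2 arrays. With shRNA1 the differences of Spink2 from the control were -2.56 and -1.90.

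Among the genes well above background on all 4 arrays, Adam33 had the largest smaller slide difference downward. It encodes a membrane metalloprotease. Its level was 0.35 and -0.35 in control cells with DEX and -1.74 and -2.12 with shRNA2. The groups did not overlap, and the difference was -1.93 (SE 0.49), -2.09 and -1.77 on the slides. A second probe gave -2.39. The limma adjusted p was 1.0 (0.628 when blocked by slide). With shRNA1 Adam33 was above the control on both slides, by 1.54 and 1.16.

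Rasd1, a Ras-related gene first found as induced by dexamethasone, was at -1.27 and -2.73 in control cells with DEX and -2.84 and -3.98 with shRNA2. Within the slides shRNA2 was at -1.56 and -1.25 relative to the control, and both shRNA2 arrays lay below both control arrays. Control cells without DEX were at -5.57 and -7.17, below all arrays with DEX. With shRNA1 the differences of Rasd1 from the control were -1.67 and -2.03.

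Cdc25b, a phosphatase that activates cyclin-dependent kinases for entry into mitosis, was at 2.69 and 1.38 in the controls and 1.44 and 0.14 with shRNA2. Its slide differences were -1.26 and -1.24. Blocked by slide, limma gave an adjusted p of 0.761. The slides gave nearly the same value, and the arrays overlapped across slides. With shRNA1 it was above the control, by 0.62 and 0.86.

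Xiap, an inhibitor of caspases, had slide differences of -1.11 and -1.1 and shRNA1 gave differences of -0.84 and -0.76. Itm2a, a membrane protein of blood cells, had -1.28 and -1.25, and Armcx2, an armadillo repeat protein, -1.08 and -1.05. Wwp1, a ubiquitin ligase, had -1.19 and -1.16, with 0.42 and -0.08 for shRNA1. Reps2, an endocytosis adaptor, had -1.07 and -1.20. For Ap1s2, a clathrin adaptor subunit (-1.23 and -1.85), Gpr174, a lysophospholipid receptor (-1.26 and -1.11), and Pcdh7, a protocadherin (-1.55 and -1.29), a second probe gave 0.12, -0.17 and 0.29, so the probes of these 3 genes disagreed. Rufy4 was at least 2.74-fold lower with shRNA2, Lpcat2, an acyltransferase of platelet activating factor synthesis, at least 2.19-fold, Hoatz at least 2.01-fold, Traf3ip2, an adaptor of interleukin 17 signalling, at least 1.99-fold, and Abca5, a lipid transporter, at least 1.77-fold. None of these 5 was well above background on either shRNA2 array, and Abca5 differed by -0.12 on slide 1 and -1.77 on slide 2.

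**Figure D3:**
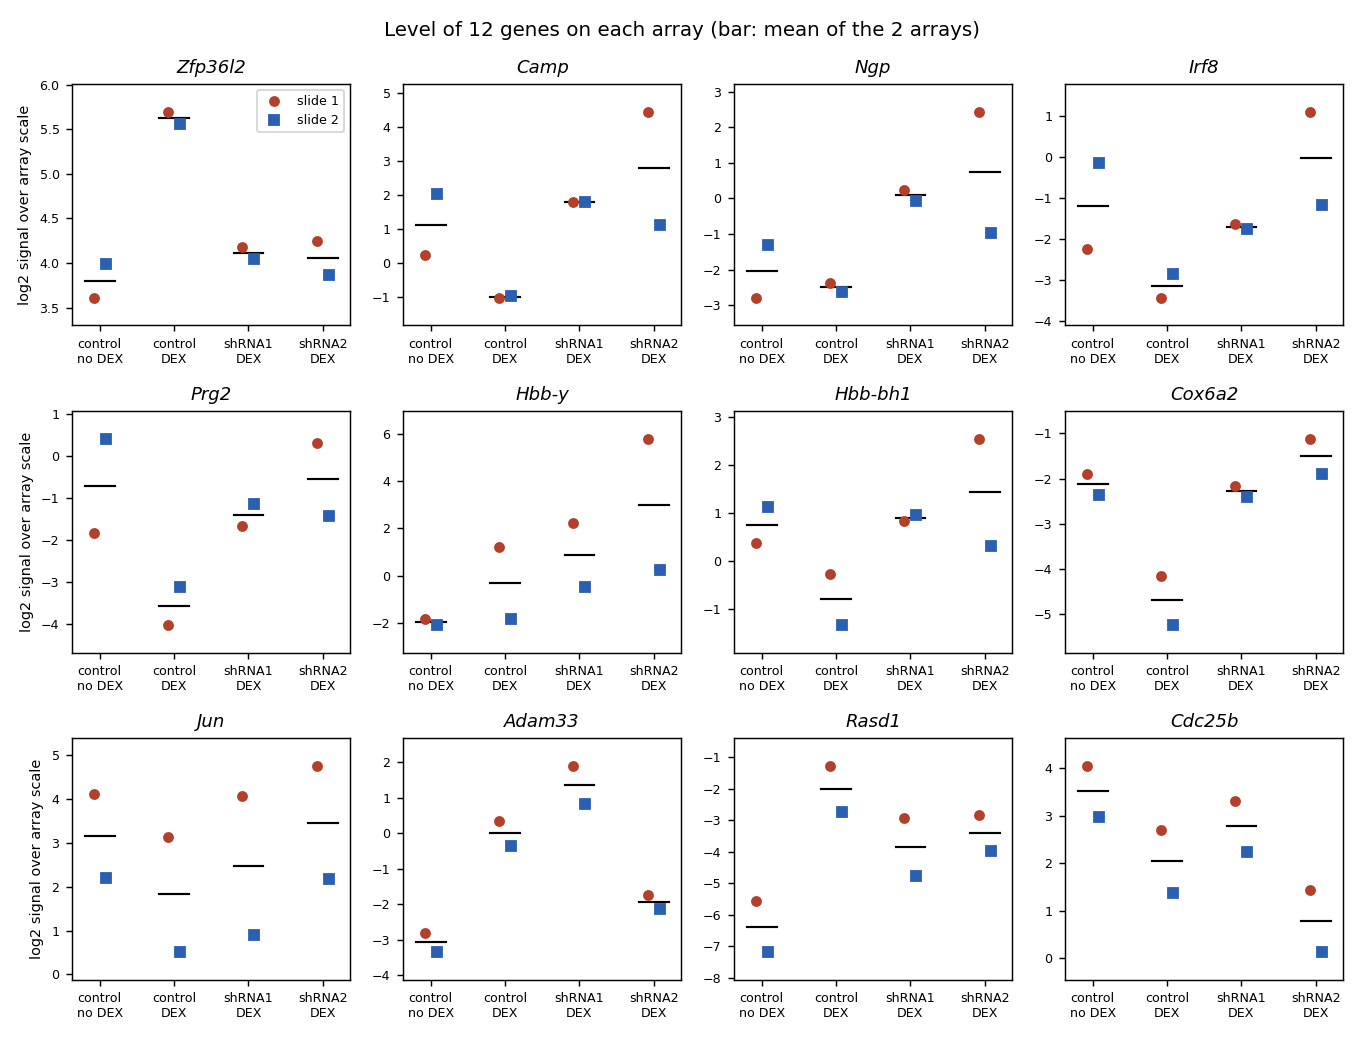
Level of 12 genes on all 8 arrays, as log2 of the signal over the array's 75th percentile; circles are slide 1, squares slide 2 and bars the mean of the 2 arrays of a group. Zfp36l2 is at 4.25 and 3.86 with shRNA2 against 5.70 and 5.57 with control virus and DEX, and Adam33 is lower with shRNA2 and higher with shRNA1.

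Other genes, well above background on all 4 arrays, had differences of opposite sign on the slides. Serpinb2, a protease inhibitor of the plasminogen system, had 2.02 on slide 1 and -1.75 on slide 2. Oasl2, an interferon-induced gene, had 1.47 and -2.07, Foxd2 1.74 and -2.21, and Serpina3g 2.92 and -1.42. In the other direction, Pabpn1l had -1.39 and 1.36, Mgarp -1.96 and 0.96, Foxh1 -0.94 and 1.63, and Atf3, a stress-induced transcription factor, -0.94 and 1.62. For these 8 genes the mean over the slides describes neither slide.

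Published mRNA targets of the ZFP36 family were examined because the hairpins lower a member of that family. Of 34 listed targets 26 were measured. The median stood 0.26 above that of all genes, 0.26 on slide 1 and 0.19 on slide 2. On both slides 10 were higher and 1 lower, where 27.8% of all genes were higher on both and 23.9% lower on both. At least 2-fold higher on both slides were 2, Jun and Ccl3, a chemokine (4.49 and 1.32). Il6, the cytokine, was well above background on 1 of 2 control arrays and had 5.0 and 0.67. Klf2, a zinc finger transcription factor, had 0.45 and 0.50, with its arrays overlapping across slides. The only member lower on both slides was Hif1a, the hypoxia factor, named after its values were seen, at -0.79 and -0.53. Without 1 array the median of the targets ran from 0.03 (control with DEX replicate 2) to 0.73 (shRNA2 replicate 2). Genes of the deadenylation, decapping and decay machinery, 47 of 47 measured, had a median of -0.13 (-0.35 and 0.11), with 0 at least 2-fold different on both slides.

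Glucocorticoid receptor targets, 31 of 33 measured, had a median 0.03 above all genes (0.10 and 0.04). On both slides 11 were higher and 7 lower (27.8% and 23.9% of all genes). At least 2-fold on both slides were 2, Lcn2 (4.63 and 1.02), which is also a neutrophil granule gene, and Rasd1, lower. Rgs2, a regulator of G protein signalling, had 2.31 and 0.51, Tgfb1i1 1.25 and 0.51, and Gadd45b 1.01 and 0.48. They were named for lying in the direction of the list median. In control cells, DEX minus no DEX was -0.82 for Rgs2, -0.845 for Tgfb1i1, -1.36 for Gadd45b, 0.02 for Lcn2 and 4.37 for Rasd1. The targets named here were therefore not all raised by DEX in these cells. The list as a whole lay close to the median of all genes on each slide.

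Red cell genes lay near the median of all genes. Red cell membrane and late erythroid genes, 38 of 38 measured, had a median of -0.12 (-0.16 and -0.02). On both slides 12 were higher and 15 lower (27.8% and 23.9% of all genes), and 0 at least 2-fold. With shRNA1, against the same controls, the median was 0.44 and 0.45. Among those lower on both slides, Aqp1, the water channel, had -1.30 and -0.43, Ube2l6 -0.54 and -0.49, Sptb, the beta chain of spectrin, -1.38 and -0.52, and Car1, carbonic anhydrase 1, -0.43 and -0.91. Haem synthesis and iron genes were at 0.07 (0.09 on each slide), and erythroid regulators at -0.03 (-0.11 and 0.17). For membrane genes the value was 0.15 without control with DEX replicate 1 and 0.19 without shRNA2 replicate 2, but these set arrays of one slide against both, and within the slides it was -0.16 and -0.02.

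Early progenitor genes, 22 of 24 measured, had a median of 0.25 that differed between slides (0.36 and -0.14, and -0.12 without shRNA2 replicate 1). On both slides 8 were higher and 6 lower (27.8% and 23.9% of all genes). Flt3, a cytokine receptor, had 3.54 and 0.25, with a mean difference of 1.89 that a second probe gave as 0.48. The transcription factor Sox4 had 1.46 and 0.44, Lyl1 0.27 and 0.29, and Cbfa2t3 0.30 and 0.27. Other probes of Cbfa2t3 ran from -0.29 to 0.85, so its direction was not the same on all of them. Kit and erythropoietin receptor signalling genes had a median of -0.09 (-0.21 and -0.03), with 4 higher and 11 lower on both slides of 26 measured (27.8% and 23.9% of all genes). Socs1, an inhibitor of cytokine signalling, had -1.52 and -0.58, the exchange factor Sos1 -1.08 and -0.46, the kinase Lyn -0.61 and -0.34, and Jak2, the kinase of the erythropoietin receptor, -0.17 and -0.30. These differences were small beside those of the granulocyte genes, and 0 of the 26 were at least 2-fold different on both slides.

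Cell cycle genes were lower on slide 1 and near the median of all genes on slide 2. G2 and M phase genes, 38 of 40 measured, had a median of -0.90 on slide 1 and 0.04 on slide 2, with 14 lower and 0 higher on both slides (23.9% and 27.8% of all genes). Cdc25b was the 1 member at least 2-fold lower on both. Ccna2, cyclin A2, had -1.22 and -0.36, Nusap1, a spindle protein, -0.86 and -0.19, and Nuf2, of the kinetochore, -0.86 and -0.18. S phase genes, 39 of 40 measured, had -0.73 and 0.00, with 16 lower and 1 higher on both slides. Without shRNA2 replicate 1 the G2 and M list stood at 0.40 and the S phase list at 0.55, but this sets the array of slide 2 against the controls of both slides, and within slide 2 they stood at 0.04 and 0.00. On slide 1 genes of hypoxia and glycolysis (-0.74) and of the respiratory chain (-0.42) were lower as well, and on slide 2 they were at 0.08 and 0.03. With shRNA1, against the same controls, G2 and M phase genes stood at -0.58 and 0.08 and S phase genes at -0.72 and -0.02. Hypoxia and glycolysis genes stood at -0.45 and -0.23, and respiratory chain genes at -0.48 and -0.07. The lower medians on slide 1 were therefore not particular to shRNA2.

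Replication-dependent histone genes were higher on both slides in 16 of 26 measured members and lower on both in 0, by small amounts (27.8% and 23.9% of all genes). Their median was 0.13 above all genes (0.19 and 0.10), and 0.01 to 0.14 under the other settings tried. H2ac6 and H2ac18 (2.57 and 1.04) were at least 2-fold higher on both slides. H1f0, which the list holds although it is a replication-independent linker histone, had 0.60 and 1.1, and H2ac20 had 0.49 and 0.31. Ribosomal protein genes, 61 of 62 measured, had 0.04 and 0.11 on the slides, with 32 higher and 6 lower on both, against the same shares of all genes, and 0 at least 2-fold.

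Of the remaining lists, 3 had a member at least 2-fold different on both slides, and these members are named after their values were seen. Among BMP and TGF-beta pathway genes, Acvr2b, an activin receptor, had 1.26 and 1.25, and Smad6, an inhibitory Smad well above background on 1 of 2 arrays of each group, had 1.66 and 1.51. Among ATF4 and unfolded protein response genes it was Vldlr, a lipoprotein receptor well above background on 1 of 2 control arrays (2.43 and 1.90), and among immediate early genes it was Jun. The medians of these 3 lists were -0.02, 0.04 and 0.25. Interferon response genes had 0.66 on slide 1 and -0.23 on slide 2, and mast cell and basophil markers 0.58 and -0.58. Endothelial and stromal markers had 0.55 and -0.59, and lymphoid markers 0.61 and 0.03. Hepatocyte markers, p53 targets, BCL2 family, cholesterol and autophagy genes, kinase inhibitors of the cell cycle, and D cyclins with their kinases and E2F factors had medians between -0.12 and 0.16 over both slides. In these lists and the endothelial and lymphoid ones 0 members were at least 2-fold different on both slides.

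**Figure D4:**
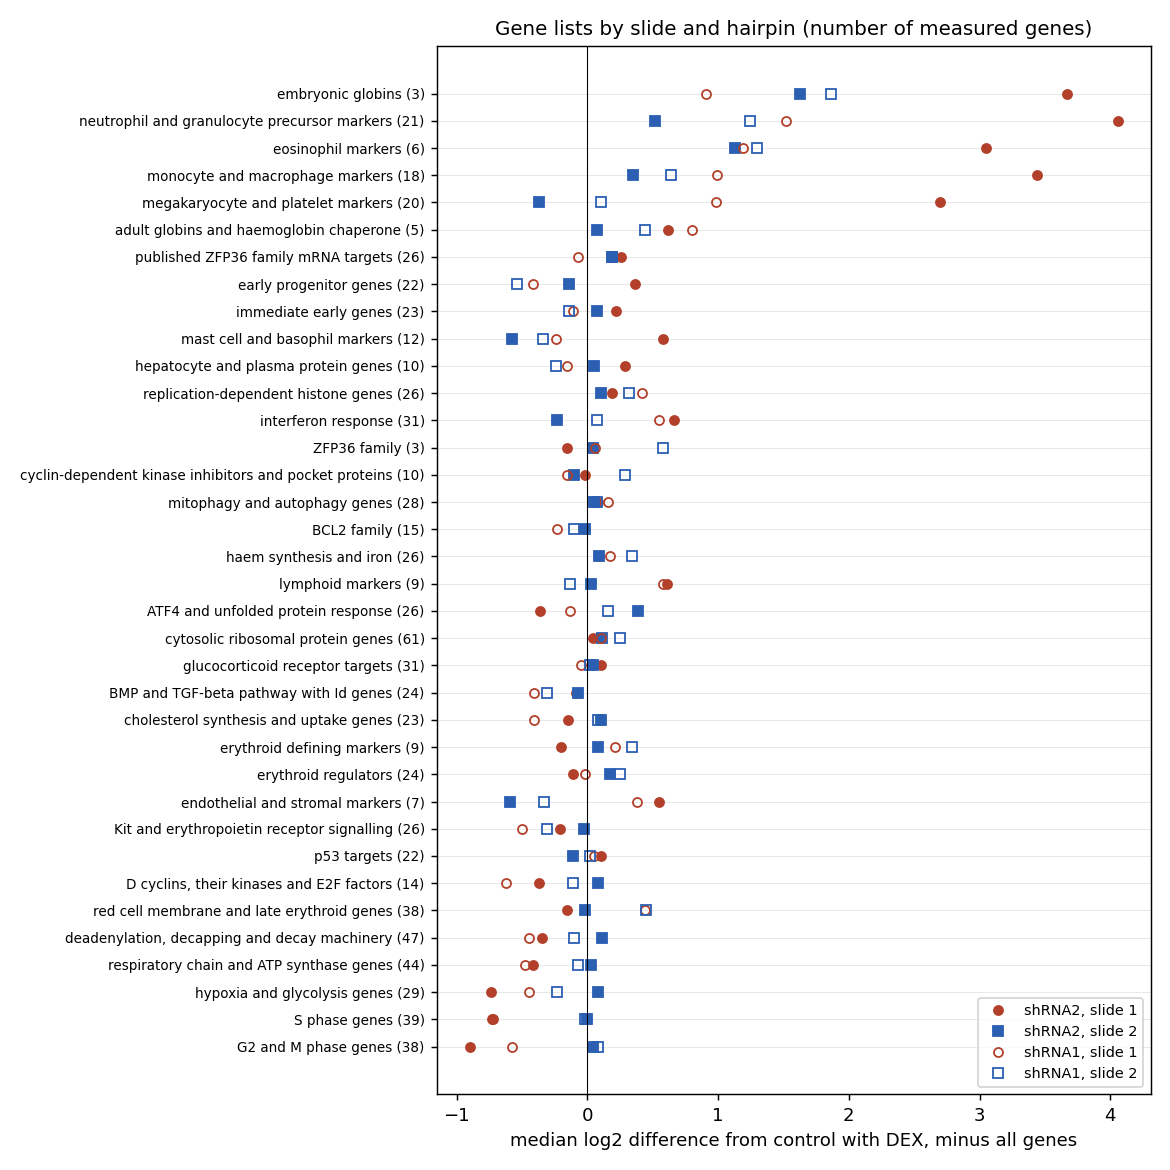
Median log2 difference of 36 gene lists from control virus with DEX, minus the median of all genes, by slide and hairpin; filled symbols are shRNA2, open symbols shRNA1, circles slide 1 and squares slide 2, with the number of genes measured in brackets. Granulocyte markers stand at 4.06 on slide 1 and 0.52 on slide 2 with shRNA2, and G2 and M phase genes at -0.90 and 0.04.

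The shRNA2 arrays were also set directly against the shRNA1 arrays with DEX, which carry the other hairpin. Limma called 0 genes without a block (0.0%) and 0 with it, and 436 had an unadjusted p under 0.05 without the block and 2031 with it. The smallest adjusted p without the block was 0.707. The genes with the smallest p, Rem2, Gal3st3, Olfr1052 and Cx3cl1, were well above background with shRNA1 and on no array with shRNA2 or with control virus and DEX. They passed the filter on dim probes with shRNA1, the group where they were high. Their rank by p is therefore a description and not support. With shRNA1, Rem2, a small GTPase, was at least 5.39-fold higher than with shRNA2, Gal3st3, a sulfotransferase, at least 5.52-fold, Olfr1052, an olfactory receptor, at least 3.14-fold, and Cx3cl1, a chemokine, at least 5.36-fold. Cx3cl1, for example, was at -3.48 and -3.17 with shRNA1 and at -6.51 and -6.23 with shRNA2. Granulocyte markers lay 0.80 above all genes in this direct comparison, but the slides went opposite ways: against the control the list stood at 4.06 with shRNA2 and 1.52 with shRNA1 on slide 1, and at 0.52 and 1.24 on slide 2. Red cell membrane genes lay at -0.52.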

How the data were processed

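Scanner output came from Agilent Feature Extraction 10.1.1.1, per the file headers. The deposited intensity of a spot (processed signal) is linear. The deposited series table holds log2 values made by the authors, with normalization steps that no header or label used here states. Column medians are 6.65 to 6.66, and the table served as 1 alternative. The array files give probe positions on mm9, for which no gene models were used here, so exons and untranslated regions are not stated.

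Control spots (1377 of 44397) and outlier-marked spots were left out, spots of a probe were averaged, and 441 of 39429 probes had no usable spot on some array. Signals were taken as log2 minus the array's 75th percentile. Probes were named by accession (26581) or the file's name (12848). A probe was tested if both arrays of any group had it well above background; a gene took its probe with the highest mean, and 3900 of 19130 genes had several. The fit was lmFit with eBayes (limma 3.58.1, R 4.3.3) over all 8 arrays, Benjamini-Hochberg adjusted at 0.05, without a block and with the slide as a block. Slide identifiers in the file headers tie each replicate number to a slide, and the deviations of same-numbered control and shRNA2 arrays with DEX correlated at 0.737 (0.431 to 0.859 over all pairs of groups). The fits were tried on simulated data with independent noise of equal spread and no slide effect. That trial does not cover the correlation between arrays of a slide.

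Where 1 group was not well above background on either array, the fold is a bound: the mean of the bright group against, per array, the higher of the lowest signal well above background and the dim probe's own. A list's value is the median difference of its members minus that of all genes. Genes named are the 12 per direction with the largest smaller slide difference among genes above background on all 4 arrays, the 5 largest bounds per direction, 4 per direction of opposite sign, up to 4 members of each list described, the ZFP36 family, the 6 smallest p without and with the block, and the 4 smallest p against shRNA1; symbols only, and exceptions are marked. The comparison, the lists and this rule were chosen with earlier results of these data known. Alternatives were the array median, quantile and normexp (offset 50) scaling, the authors' table, other filters, the mean of probes, the 4 arrays alone, the block and leaving out each array. The number of arrays limits the precision.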

Additional observations from a re-analysis of the deposited data

Results flagged for a closer look

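For 8 of the genes named, and for 3 lists, both shRNA2 arrays lay on one side of the control array of their slide and both shRNA1 arrays on the other. The comparisons share the control arrays with DEX, and in limma without a block 0 genes passed between the hairpins (adjusted p of at least 0.707). Adam33, at -2.09 and -1.77 with shRNA2 and 1.54 and 1.16 with shRNA1, had a difference between the hairpins of -3.28 (SE 0.49). Cdc25b had -2.0 (SE 0.73), from -1.26 and -1.24 against 0.62 and 0.86. Hoatz, with shRNA2 below background, had -2.14. Aqp1 had -1.74 and Ube2l6 -1.51, with shRNA1 above and shRNA2 below the controls for both. Reps2 had -1.34, with 0.13 and 0.28 for shRNA1, and Sptb -1.08, with 0.01 and 0.26. Sox4 went the other way, at 1.12 (SE 0.43), with -0.01 and -0.34 for shRNA1. Rem2 had the same pattern by its signals, with a fitted difference of -3.82, but it was not well above background with shRNA2 or in the controls with DEX. Its order between those groups was therefore not measured, and with shRNA1 it was at least 5.39-fold higher than with shRNA2.

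Among lists, red cell membrane and late erythroid genes stood at -0.52 between the hairpins, immediate early genes at 0.15 and hepatocyte and plasma protein genes at 0.19, each the median of members minus that of all genes. For the lists the difference between the hairpins was not tested.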

How the results depend on the processing

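Without a block, limma called 0 genes under every alternative scaling, filter and leave-out, and 1 with the replicate block; the blocked count was 9 without shRNA2 replicate 2 and 0 with any other array left out (chosen after seeing the data). Genes at least 2-fold higher on both slides, 151 as reported, were 18 with normexp, 27 in the authors' values, 314 with no filter, 70 among genes above background on all 4 arrays, 406 at 1.5-fold, 15 at 4-fold and 284 on slide 2 alone (added after seeing the data). Those lower, 49 as reported, were 92 with the array median as the scale, 75 with quantile, 10 with normexp, 16 in the authors' values, 115 with no filter, 17 above background on all 4 arrays, 279 at 1.5-fold, 2 at 4-fold and 432 on slide 2 alone. Of 1382 values of 83 genes under the alternatives, 1364 kept their direction and 18 turned, all of these but 1 with an array left out. Leaving out 1 array, which sets the remaining array of a group against arrays of both slides, gave, lowest to highest, Cbfa2t3 -0.11 to 0.69, Ccna2 -1.74 to 0.17, Gp6 -0.44 to 4.45, H2ac18 -0.33 to 3.94, H2ac20 -0.22 to 1.01, Klf2 -0.65 to 1.60, Nuf2 -1.27 to 0.24, Sptb -2.08 to 0.18, Tgfb1i1 -0.26 to 2.02, Ube2l6 -1.21 to 0.18, Zfp36 -1.13 to 1.75 and Zfp36l1 -0.078 to 0.34. With the array median as the scale Zfp36l1 was at -0.12. The granulocyte, monocyte and eosinophil lists kept their direction under all alternatives, with medians of 1.13 to 3.54, 0.61 to 3.21 and 0.85 to 3.17, and the megakaryocyte list ran from -0.49 to 2.73. For 17 of the 36 lists, with reported medians of -0.12 to 0.35, the sign turned under some scaling, filter or probe rule. The cause of these shifts was not tested.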

Other observations

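X-linked genes were frequent among the named genes lower with shRNA2, a count noticed after the values were seen and not tested. Of the 49 genes at least 2-fold lower on both slides 7 (14.3%) lie on chromosome X, which carries 701 (3.66%) of the genes tested. They are Xiap, Itm2a, Armcx2, Reps2, Ap1s2, Gpr174 and Usp26. For Ap1s2 and Gpr174 a second probe gave 0.12 and -0.17, so their place in this count rests on 1 of 2 probes. Of the 151 higher genes 4 (2.65%) lie there. Chromosome X as a whole had a median difference of -0.02 on slide 1 and -0.05 on slide 2. Xist, the RNA that silences an X chromosome in female cells, was at -0.56 and -0.84 in control cells with DEX and -0.43 and -0.85 with shRNA2. Ddx3y, a Y-linked helicase gene, was at -0.31 and -0.18 in the controls and -0.50 and -0.19 with shRNA2, so the levels of both genes were close in the 2 groups. The 63 genes tested on chromosome Y had a median difference of 1.62 on slide 1 and -0.06 on slide 2. Ddx3y did not share the difference on slide 1. How many of these genes were well above background was not counted, and the difference between the slides was not tested.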
